A study of Homo sapiens with 9 samples.

Results

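Wnt signalling in SKOV3 cells is described here through 52 protein-coding genes, out of 58735 genes in the deposited count table, of which 19951 are protein-coding. The members were taken by name: all Wnt ligands (WNT genes), frizzled receptors (FZD genes), dickkopf inhibitors DKK1 to DKK4, secreted frizzled-related proteins SFRP1 to SFRP5 and R-spondin receptors LGR4 to LGR6. To these were added the co-receptors LRP5 and LRP6, the ubiquitin ligases RNF43 and ZNRF3, the cytoplasmic genes AXIN1, AXIN2, APC and CTNNB1, and the transcription factors TCF7, TCF7L1, TCF7L2 and LEF1.

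SKOV3 is an established human ovarian adenocarcinoma line with a high level of the receptor ERBB2. RNA was sequenced from 3 groups of 3 libraries: cells expressing wild-type CDK9 and left without inhibitor (WT CDK9), cells expressing WT CDK9 and treated with an ALK inhibitor for 24 h, and cells expressing CDK9 with phenylalanine in place of tyrosine at residue 19 (Tyr19Phe CDK9). CDK9 is the kinase subunit of P-TEFb, which releases paused RNA polymerase II into elongation. The study asked what the ALK kinase does through phosphorylation of that tyrosine, so the inhibitor and the mutation were each set against WT CDK9. The labels name neither the inhibitor used for these libraries nor a vehicle for the WT CDK9 libraries, and they do not say whether replicates were separate cultures. The study's other assays used stable lines for each allele, and an effect of the allele and a difference between lines cannot be told apart in this design.

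Wnt proteins are secreted, lipid-modified ligands that bind frizzled receptors together with LRP5 or LRP6. In the canonical branch, binding halts a cytoplasmic complex built on axin and APC that marks beta-catenin (CTNNB1) for destruction, and beta-catenin then acts with TCF and LEF factors at target genes. Dickkopf and secreted frizzled-related proteins act outside the cell, while R-spondin receptors and the ligases ZNRF3 and RNF43 set how much frizzled stays on the surface. The fallopian and ovarian surface epithelia express several Wnt ligands, and beta-catenin mutations are typical of the endometrioid type of ovarian carcinoma.

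Counted reads per library were 19731228, 19231320 and 18939449 in WT CDK9, 20974903, 18169050 and 19207111 with ALK inhibitor, and 29320184, 27906210 and 26485891 in Tyr19Phe CDK9. The Tyr19Phe CDK9 libraries were thus the deepest, and depth and group cannot be told apart for detection of rare RNAs. On the first principal components of all tested genes (24.8% and 17.0% of the variance), ALK inhibitor replicate 2 stood apart from its group at -51.6 on the second component against 10.4 and 9.01. Tyr19Phe CDK9 replicate 3 stood apart at 48.3 on the first against 27.2 and 27.9. These libraries also had the fewest genes with a count in their groups, 19944 against 21911 and 21915, and 20635 against 22609 and 22744. Results that depended on either library are given with and without it.

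CDK9 itself was at 48.4, 49.7 and 47.6 CPM (counts per 1e+06 counted reads after scaling) in WT CDK9, 43.8, 47.3 and 45.7 CPM with ALK inhibitor, and 52.4, 53.1 and 59.5 CPM in Tyr19Phe CDK9. The log2 fold change was -0.09 with ALK inhibitor (adjusted p = 0.665) and 0.18 in Tyr19Phe CDK9 (adjusted p = 0.106), so neither difference from WT CDK9 passed the threshold. Tyr19Phe CDK9 was 0.27 above ALK inhibitor (adjusted p = 0.00961), a call lost without ALK inhibitor replicate 1 (adjusted p = 0.0541), Tyr19Phe CDK9 replicate 3 (adjusted p = 0.0794) or both libraries that stand apart (adjusted p = 0.0716). These are gene counts and do not separate the introduced allele from the endogenous gene. ALK, the target of the inhibitor, had 0 to 5 counts per library and was not tested.

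The carcinoma label was checked against marker lists. The 10 epithelial and ovarian carcinoma markers summed to 5361, 5551 and 5409 CPM in WT CDK9, 5890, 6031 and 5970 CPM with ALK inhibitor, and 5233, 5372 and 5176 CPM in Tyr19Phe CDK9. ERBB2 was the most abundant of them, at 1768 to 1858 CPM in WT CDK9, while CDH1 (1 to 18 counts per library) and MUC16 (0 to 9) were near the detection floor. The 6 leukocyte markers summed to 3 to 22 counts per library, and none of them passed the filter. The 5 endothelial markers summed to 1.08 to 2.62 CPM in WT CDK9, 1.32 to 2.04 CPM with ALK inhibitor, and 3.35 to 4.34 CPM in Tyr19Phe CDK9, where all 3 libraries lay above the other 6. KDR was the most abundant, at 14 to 87 counts per library, and it was the 1 gene tested and was not called (0.73 in Tyr19Phe CDK9, adjusted p = 0.251). CDH5, below the filter, had 0 counts in WT CDK9, 0, 1 and 0 with ALK inhibitor, and 14, 35 and 17 in Tyr19Phe CDK9, while PECAM1 had 0 to 3.

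The 6 fibroblast markers differed between the groups too. Their sum was 110, 111 and 113 CPM in WT CDK9, 124, 162 and 147 CPM with ALK inhibitor, and 52.0, 43.8 and 39.0 CPM in Tyr19Phe CDK9. COL1A1 was the most abundant gene of that list, with log2 fold changes of 0.35 (adjusted p = 0.0111) and -1.46 (adjusted p = 1.04e-13). The defining markers DCN (0 to 3 counts) and LUM (0 to 4) were near 0 in all 9 libraries, and 2 of the 6 genes passed the filter. Epithelial markers differed as well in Tyr19Phe CDK9, with KRT19 at -1.24 (adjusted p = 3.86e-17) and MSLN at -1.67 (adjusted p = 4.91e-14), while KRT8 was at 0.38 (adjusted p = 5.11e-10). In bulk RNA, fewer cells of a kind and less RNA per cell cannot be told apart, and the part of cell state in the Wnt results was not tested.

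Of the 52 members, 37 had enough counts to be tested, 31 of them with at least 10 counts in every library. Another 7 had only scattered counts, and 8 had no counts in any library: SFRP2, SFRP5, FZD10, RNF43, WNT2, WNT8A, WNT8B and WNT9B. A count of 0 allows a level of up to 0.102 to 0.165 CPM, depending on the library (3 counts of its total). These floors cover counting error only. For RNF43, 68.4% of the exonic bases lie under another gene on the same strand in GENCODE release 44, and whether reads there went uncounted was not tested.

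**Figure D1:**
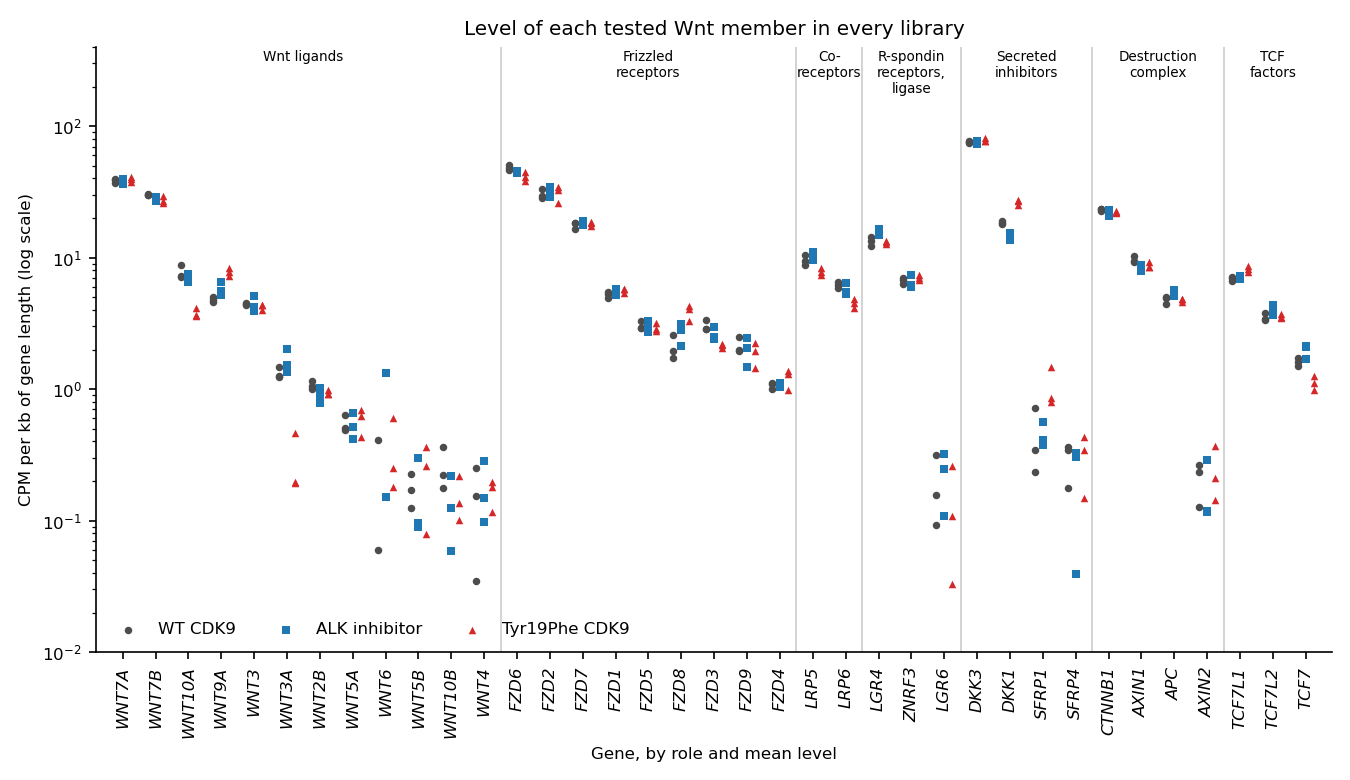
Level of each tested member in every library, in CPM per kilobase of listed gene length on a log scale, with genes ordered by role and mean level and points coloured by group. DKK3, FZD6 and WNT7A lead their families in all 9 libraries, while WNT6 has no point for WT CDK9 replicate 2 and ALK inhibitor replicate 1, where it had 0 counts.

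A gene was called when its adjusted p was under 0.05 over all 16350 tested genes. With ALK inhibitor, 2 of the 37 tested members were called (5.41%), 1 higher and 1 lower, beside 4.55% of all tested genes (1.82% higher and 2.73% lower). In Tyr19Phe CDK9, 11 of 37 were called (29.7%), 4 higher and 7 lower, beside 18% of all tested genes (7.61% higher and 10.4% lower). Between Tyr19Phe CDK9 and ALK inhibitor, 11 of 37 were called (29.7%), 4 higher and 7 lower, beside 20.7% of all tested genes (9.57% higher and 11.1% lower). The members' median log2 fold change was -0.01, 0.02 and -0.02 in that order, against -0.00, 0.00 and 0.00 for all tested genes. At an unadjusted p under 0.05 the member counts were 9, 14 and 14 of 37. Over all 16350 tested genes the counts were 2473, 4739 and 5145.

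In all, 12 members were called in at least 1 comparison: WNT3A, WNT10A, WNT9A, FZD3, FZD6, FZD8, LRP5, LRP6, LGR4, DKK1, SFRP1 and TCF7. The comparisons share libraries, so their values are set side by side below. The p-values set each group difference against the spread between libraries of the same group. Whether that spread covers separate cultures or separate lines is not given in the labels.

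**Figure D2:**
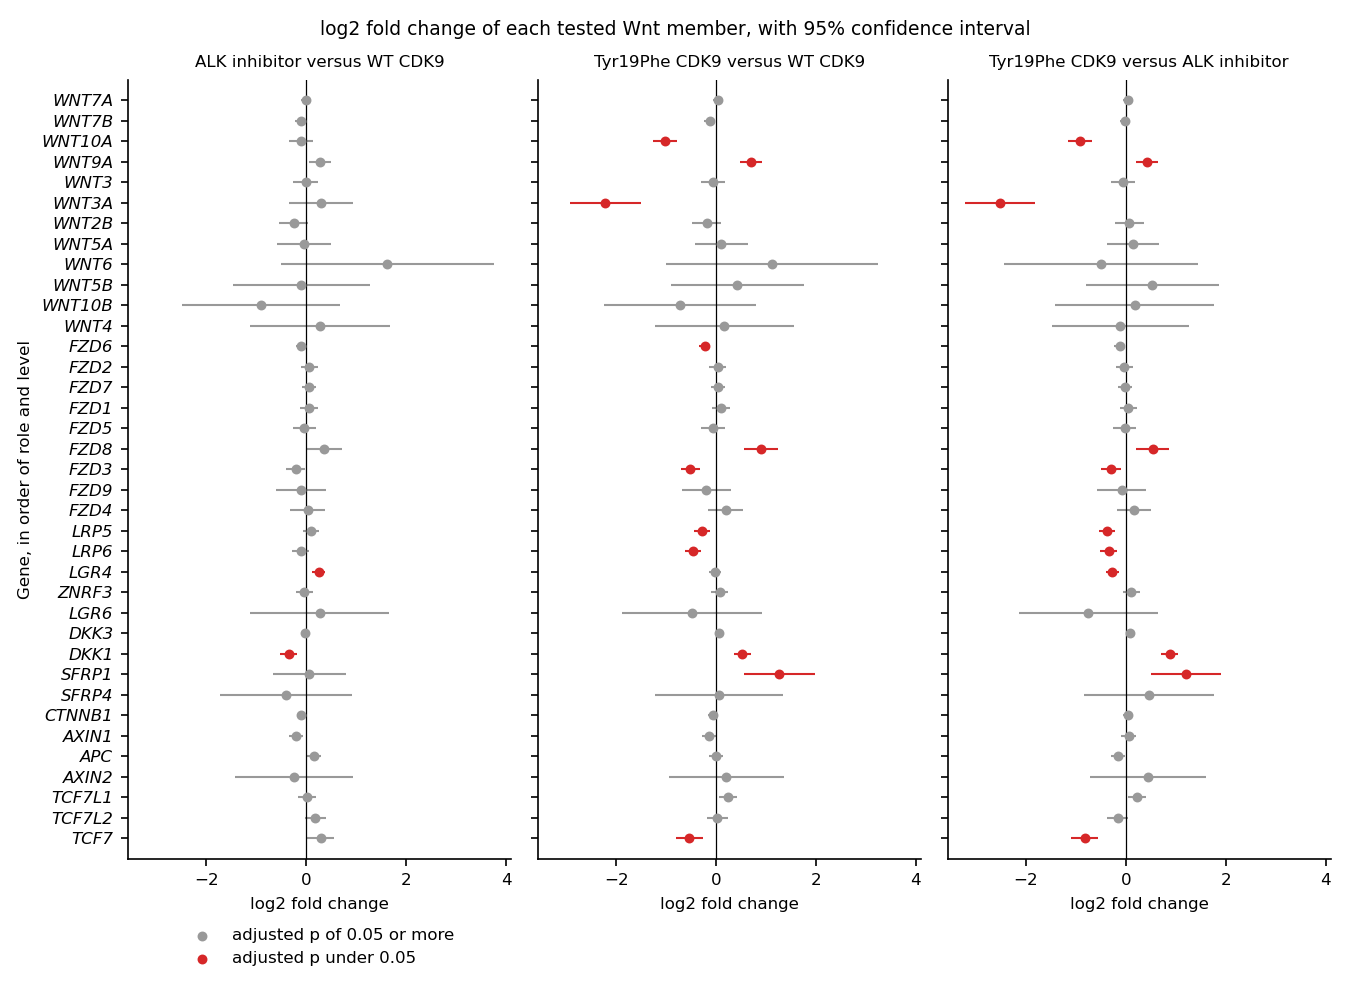
Estimated log2 fold change (x axis) of each of the 37 tested members in the 3 comparisons, with 95% confidence intervals; red points have an adjusted p under 0.05. WNT3A lies farthest to the left in both panels with Tyr19Phe CDK9, at -2.21 and -2.52, and intervals are wide for members with few counts such as WNT6 and WNT10B.

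Among the ligands, WNT7A and WNT7B made up 75.3% to 79.1% of all Wnt ligand RNA per kilobase in every library. These paralogues are classed with the canonical ligands, and WNT7A is known from Müllerian duct and fallopian epithelium. WNT7A was at 169, 183 and 179 CPM in WT CDK9, 181, 181 and 167 CPM with ALK inhibitor, and 182, 172 and 189 CPM in Tyr19Phe CDK9. The groups overlapped, and the 95% interval of the log2 fold change ran from -0.11 to 0.10 with ALK inhibitor and from -0.07 to 0.13 in Tyr19Phe CDK9. WNT7B was at 155, 150.2 and 152 CPM in WT CDK9, 147, 142 and 136 CPM with ALK inhibitor, and 149, 137 and 132 CPM in Tyr19Phe CDK9. Its values were lower in all 6 libraries of the other groups than in WT CDK9, with log2 fold changes of -0.11 (adjusted p = 0.334) and -0.13 (adjusted p = 0.0997). Neither passed the threshold; without Tyr19Phe CDK9 replicate 1 the Tyr19Phe CDK9 value was -0.17 (adjusted p = 0.0286).

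Below this pair came WNT10A, WNT9A and WNT3, with mean levels over the 9 libraries of 6.23, 6.10 and 4.37 CPM per kilobase beside 38.9 for WNT7A and 28.6 for WNT7B. WNT10A (ENSG00000135925, hg38 chr2:218880363-218899581, plus strand) encodes a canonical ligand of skin, hair and teeth. It was at 30.0, 24.4 and 24.6 CPM in WT CDK9, 25.3, 22.4 and 25.7 CPM with ALK inhibitor, and 12.4, 12.6 and 14.1 CPM in Tyr19Phe CDK9. All 3 Tyr19Phe CDK9 libraries were below the other 6, and the ALK inhibitor libraries overlapped WT CDK9. The log2 fold change was -1.02 (SE 0.117, adjusted p = 6.7e-08) in Tyr19Phe CDK9 and -0.91 (adjusted p = 4.36e-07) against ALK inhibitor. With ALK inhibitor it was -0.11 against WT CDK9 (adjusted p = 0.764).

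WNT9A and WNT3A are neighbours on chromosome 1 and are read away from each other, with starts 59.2 kb apart. WNT3A is the canonical ligand most used to activate the pathway in culture, and WNT9A acts in joint and blood stem cell development. Their promoter windows (250 bases before to 50 bases after the RefSeq start, GRCh38.p14, 5′ to 3′) are shown because this pair changed in opposite directions. The WNT3A window lies at chr1:228006748-228007047 on the plus strand. The RefSeq start lies upstream of the WNT3A start in the deposited table, and the window ends just before the latter. The WNT9A window lies at chr1:227947883-227948182 on the minus strand.
WNT3A: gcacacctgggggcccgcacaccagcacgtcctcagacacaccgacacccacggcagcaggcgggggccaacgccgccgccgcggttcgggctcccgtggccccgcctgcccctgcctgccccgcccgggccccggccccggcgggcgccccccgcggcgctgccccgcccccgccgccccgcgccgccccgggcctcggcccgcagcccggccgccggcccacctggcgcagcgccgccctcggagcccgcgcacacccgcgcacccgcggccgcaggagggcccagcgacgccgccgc
WNT9A: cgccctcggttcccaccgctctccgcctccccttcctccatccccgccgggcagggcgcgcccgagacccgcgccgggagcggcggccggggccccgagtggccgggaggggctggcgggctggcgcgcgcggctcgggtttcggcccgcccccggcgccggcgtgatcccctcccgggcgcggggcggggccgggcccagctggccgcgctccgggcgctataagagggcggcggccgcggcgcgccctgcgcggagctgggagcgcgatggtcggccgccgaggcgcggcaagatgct
The windows are rich in CpG, with 49 and 53 CpG dinucleotides and a GC content of 86.0% and 83.0%, against medians of 14 and 58.7% over 35116 promoters of this length. No letters are in capitals because neither motif searched, the TCF and LEF core (CTTTGAT or CTTTGTT) and TATAAA on either strand, is in these windows.

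WNT3A (ENSG00000154342, hg38 chr1:228007051-228061260, plus strand) was at 4.31, 3.64 and 3.69 CPM in WT CDK9, 5.89, 3.95 and 4.50 CPM with ALK inhibitor, and 0.576, 1.35 and 0.566 CPM in Tyr19Phe CDK9. The Tyr19Phe CDK9 libraries were all below the other 6, and the remaining groups overlapped. The log2 fold change in Tyr19Phe CDK9 was -2.21 (SE 0.347, adjusted p = 1.35e-05), the farthest from 0 among the called members, and it was -2.52 (adjusted p = 1.42e-06) against ALK inhibitor. With ALK inhibitor it was 0.30 against WT CDK9, with a 95% interval from -0.34 to 0.94 (adjusted p = 0.749).

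WNT9A (ENSG00000143816, hg38 chr1:227918656-227947898, minus strand) was at 18.8, 20.1 and 18.1 CPM in WT CDK9, 26.0, 20.5 and 22.3 CPM with ALK inhibitor, and 30.7, 28.7 and 32.9 CPM in Tyr19Phe CDK9. The 3 groups did not overlap, in the order WT CDK9, ALK inhibitor, Tyr19Phe CDK9. The log2 fold change was 0.70 (SE 0.109, adjusted p = 1.29e-05) in Tyr19Phe CDK9. The ALK inhibitor value of 0.27 did not pass the threshold (adjusted p = 0.206). Tyr19Phe CDK9 was 0.42 above ALK inhibitor (adjusted p = 0.00414), a call lost without both libraries that stand apart, where it was 0.30 (adjusted p = 0.113).

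Within the ligand RNA, the share of WNT10A went from 8.61% ± 1.04 (SD, n = 3) in WT CDK9 and 8.16% ± 0.784 with ALK inhibitor to 4.45% ± 0.312 in Tyr19Phe CDK9. The share of WNT9A went from 5.34% ± 0.27 and 6.56% ± 0.701 to 9.03% ± 0.461. WNT9A thus took the place behind WNT7A and WNT7B that WNT10A held in WT CDK9. WNT3A stayed a minor ligand, at 1.32, 1.63 and 0.284 CPM per kilobase.

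**Figure D3:**
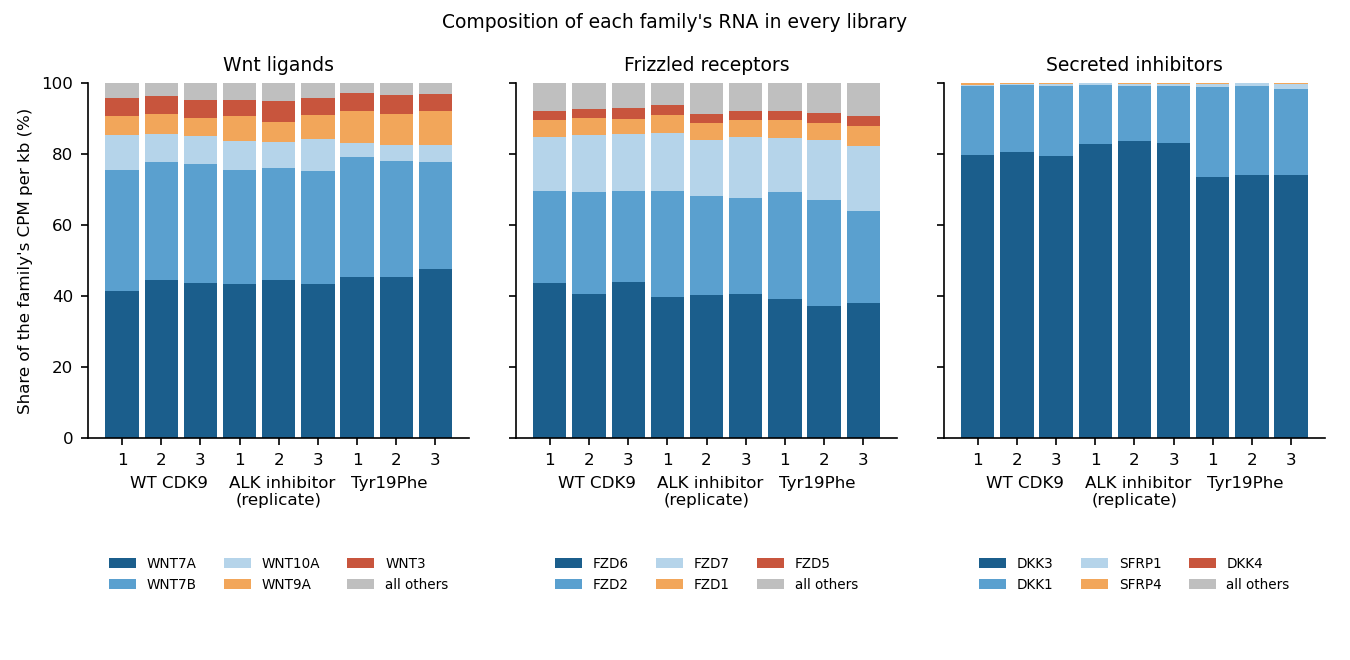
Share of each family's CPM per kilobase (y axis, percent) taken by its most abundant members in each of the 9 libraries. WNT7A and WNT7B fill 75.3% to 79.1% of the ligand bars, and the DKK1 band is wider in Tyr19Phe CDK9 (mean 24.8%) than in WT CDK9 (19.3%) or with ALK inhibitor (16.0%).

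Among the other tested ligands no gene was called in any of the 3 comparisons. WNT3, a canonical ligand, was at 17.0 to 22.3 CPM in all 9 libraries. WNT2B lay at 9.78 to 14.5 CPM and WNT5A, the best known ligand of the beta-catenin-independent branch, at 3.10 to 5.17 CPM. WNT4, WNT5B, WNT6 and WNT10B were at or below 2.25 CPM, which was the value of WNT6 in ALK inhibitor replicate 2. The 95% interval for WNT4 in Tyr19Phe CDK9 ran from -1.22 to 1.55 on the log2 scale, so only a large difference was detectable at this depth. WNT11 had 6, 5 and 10 counts in WT CDK9, 5, 10 and 2 with ALK inhibitor and 0, 5 and 0 in Tyr19Phe CDK9. WNT16 had 8 counts in Tyr19Phe CDK9 replicate 3 and 0 elsewhere, and WNT1 had 2 counts in WT CDK9 replicate 2. With ALK inhibitor 0 of the 12 tested ligands were called by edgeR or DESeq2, beside 4.55% and 6.63% of all genes that each tested. At an unadjusted p under 0.05 there was 1 ligand, beside 2473 of all 16350 tested genes.

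Frizzled receptors are the membrane receptors of Wnt ligands, and 9 of the 10 genes were tested. FZD6 led the family with 44.8 CPM per kilobase over the 9 libraries, followed by FZD2 (31.0) and FZD7 (18.1). FZD6 alone took 42.8%, 40.2% and 38.2% of frizzled RNA per kilobase in WT CDK9, with ALK inhibitor and in Tyr19Phe CDK9. FZD2 and FZD7, the latter a known mediator of Wnt signals in epithelial tumours, overlapped between all groups, at 54.9 to 73.1 and 63.4 to 73.1 CPM.

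FZD8 was at 10.5, 7.86 and 7 CPM in WT CDK9, 8.54, 12.6 and 11.4 CPM with ALK inhibitor, and 13.2, 17.4 and 16.5 CPM in Tyr19Phe CDK9. Every Tyr19Phe CDK9 library was above the other 6, while WT CDK9 and ALK inhibitor overlapped. FZD8 rose by 0.89 on the log2 scale in Tyr19Phe CDK9 (SE 0.168, adjusted p = 0.000175), and its ALK inhibitor value was 0.36 (adjusted p = 0.319). Against ALK inhibitor the difference was 0.53 (adjusted p = 0.0182). That call was lost without ALK inhibitor replicate 1 (adjusted p = 0.141), Tyr19Phe CDK9 replicate 2 (adjusted p = 0.0954) or Tyr19Phe CDK9 replicate 3 (adjusted p = 0.0625).

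FZD3, a receptor of axon guidance and planar polarity, was at 39.4, 39.7 and 46.3 CPM in WT CDK9, 34.2, 41.1 and 33.0 CPM with ALK inhibitor, and 28.1, 29.7 and 30.1 CPM in Tyr19Phe CDK9. Its Tyr19Phe CDK9 libraries were the lowest 3 of the 9. FZD3 fell by 0.51 in Tyr19Phe CDK9 (SE 0.095, adjusted p = 0.000153), with -0.21 (adjusted p = 0.278) under ALK inhibitor. The direct difference of -0.30 (adjusted p = 0.0225) was lost without ALK inhibitor replicate 2 (adjusted p = 0.194), Tyr19Phe CDK9 replicate 1 (adjusted p = 0.0831), Tyr19Phe CDK9 replicate 2 (adjusted p = 0.0521) or both libraries that stand apart (adjusted p = 0.211).

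FZD6, which can restrain canonical signalling and acts in planar polarity, was at 194, 190 and 205 CPM in WT CDK9, 187, 183 and 178 CPM with ALK inhibitor, and 181, 167 and 155 CPM in Tyr19Phe CDK9. Tyr19Phe CDK9 libraries were below all WT CDK9 libraries and overlapped ALK inhibitor. It fell by 0.23 in Tyr19Phe CDK9 (SE 0.0515, adjusted p = 0.00163), and on the linear scale by 14.5%. The ALK inhibitor value was -0.10 (adjusted p = 0.342) and the direct difference -0.12 (adjusted p = 0.0929), the latter called without Tyr19Phe CDK9 replicate 1 (-0.18, adjusted p = 0.0166). FZD1, FZD4, FZD5 and FZD9 were not called in any comparison, at 3.38 to 40.1 CPM.

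LRP5 and LRP6, the single-pass co-receptors that pair with frizzleds in canonical signalling, were both called lower in Tyr19Phe CDK9. LRP6 (ENSG00000070018, hg38 chr12:12116025-12267012, minus strand) was at 67.0, 61.0 and 64.2 CPM in WT CDK9, 65.8, 54.8 and 56.9 CPM with ALK inhibitor, and 47.1, 50 and 42.6 CPM in Tyr19Phe CDK9. LRP5 (ENSG00000162337, hg38 chr11:68312609-68449275, plus strand) was at 64.4, 58.3 and 53.8 CPM, 67.6, 62.5 and 59.1 CPM, and 48.3, 51.7 and 45.8 CPM in the same order. For each gene the Tyr19Phe CDK9 libraries were the lowest 3, and WT CDK9 and ALK inhibitor overlapped. LRP6 fell by 0.46 (SE 0.0796, adjusted p = 5.99e-05) and was at -0.35 from ALK inhibitor (adjusted p = 0.00166). On the linear scale LRP6 fell by 27.3%. LRP5 was -0.28 from WT CDK9 (adjusted p = 0.0116) and -0.38 from ALK inhibitor (adjusted p = 0.000552). The LRP5 call against WT CDK9 was lost without WT CDK9 replicate 1 (adjusted p = 0.137), without Tyr19Phe CDK9 replicate 3 (adjusted p = 0.0782) and without both libraries that stand apart (adjusted p = 0.0758). With ALK inhibitor the values were -0.11 for LRP6 (adjusted p = 0.575) and 0.10 for LRP5 (adjusted p = 0.634).

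**Figure D4:**
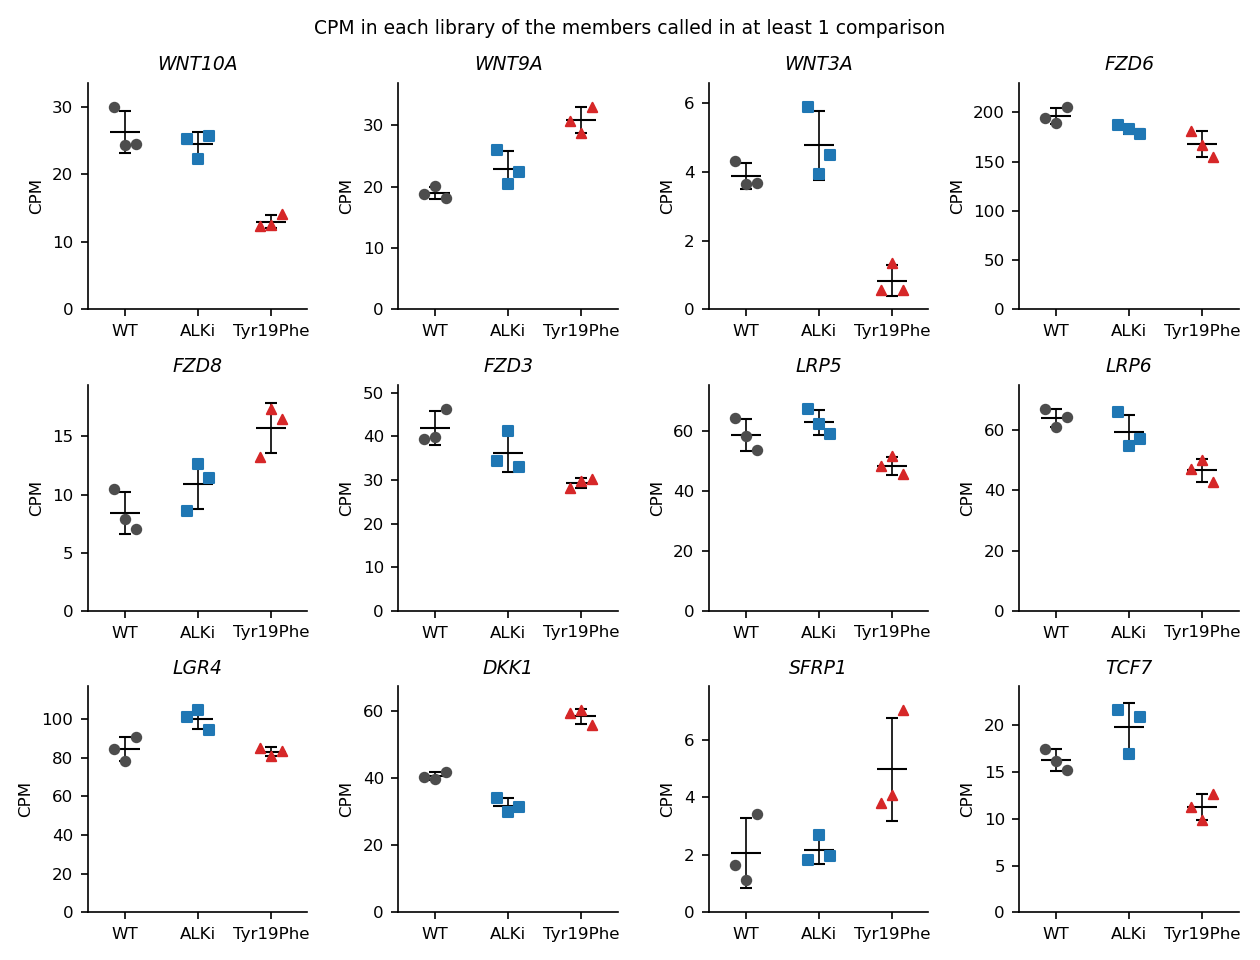
CPM of each member called in at least 1 comparison, with 1 point per library, grouped as WT CDK9 (WT), ALK inhibitor (ALKi) and Tyr19Phe CDK9 (Tyr19Phe); horizontal lines are group means and error bars 1 SD (n = 3). The y axes start at 0 and differ between genes; DKK1 is the gene whose ALK inhibitor libraries lie below, and Tyr19Phe CDK9 libraries above, those of WT CDK9.

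LGR4, the receptor for R-spondins that these cells expressed most (14.1 CPM per kilobase over the 9 libraries), was the member called higher with ALK inhibitor. It was at 84.3, 78.3 and 90.6 CPM in WT CDK9, 101, 105 and 94.6 CPM with ALK inhibitor, and 85.2, 80.8 and 83.5 CPM in Tyr19Phe CDK9. All ALK inhibitor libraries were above the other 6, while WT CDK9 and Tyr19Phe CDK9 overlapped. The log2 fold change with ALK inhibitor was 0.25 (SE 0.0637, adjusted p = 0.0166). This call was lost without WT CDK9 replicate 1 (adjusted p = 0.0682), WT CDK9 replicate 2 (adjusted p = 0.127), ALK inhibitor replicate 1 (adjusted p = 0.065), ALK inhibitor replicate 2 (adjusted p = 0.1) or both libraries that stand apart (adjusted p = 0.102). In Tyr19Phe CDK9 it was -0.02 from WT CDK9 (adjusted p = 0.878) and -0.27 from ALK inhibitor (adjusted p = 0.00194).

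ZNRF3, the ligase that removes frizzleds from the membrane and is itself a Wnt target in many tissues, was at 42.0 to 51.2 CPM with overlapping groups. LGR6 was at 0.151 to 1.47 CPM, and LGR5, a stem cell marker in gut, had 1 count in ALK inhibitor replicate 1 and 4 in Tyr19Phe CDK9 replicate 1.

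DKK1, a secreted inhibitor that binds LRP5 and LRP6 and a well-known target of beta-catenin, was the member that was called in all 3 comparisons. Its promoter window (hg38 chr10:52314031-52314330, plus strand, from RefSeq on GRCh38.p14) is shown for that reason, with capitals marking the TCF and LEF core CTTTGTT and the TATA motif TATAAA.
DKK1: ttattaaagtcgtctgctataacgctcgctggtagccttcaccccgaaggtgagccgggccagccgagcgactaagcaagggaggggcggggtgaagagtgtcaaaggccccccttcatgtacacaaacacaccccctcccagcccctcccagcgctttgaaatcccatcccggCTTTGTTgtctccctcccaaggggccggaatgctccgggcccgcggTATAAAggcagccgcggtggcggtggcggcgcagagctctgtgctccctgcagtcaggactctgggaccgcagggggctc
These letters begin 76 and 30 bases before the RefSeq start and do not overlap. The 2 core words, CTTTGAT and CTTTGTT on either strand, were present in 7.61% of 35116 promoters of this length and TATAAA in 11.5%. Other spellings of the core were not searched. Promoters matched 36 of the 52 members with 46 windows, of which 4 held a core (in DKK1, TCF7, TCF7L2 and WNT3) and 4 a TATAAA (in DKK1, FZD8, TCF7 and WNT5B). A match describes letters and not a bound site. The members' windows had a median of 24 CpG dinucleotides and a GC content of 65.7%, against 14 and 58.7% over all promoters.

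DKK1 (ENSG00000107984, hg38 chr10:52314296-52318042, plus strand) was at 40.2, 39.5 and 41.7 CPM in WT CDK9, 34.1, 29.8 and 31.3 CPM with ALK inhibitor, and 59.2, 60.1 and 55.9 CPM in Tyr19Phe CDK9. The 3 groups did not overlap, with ALK inhibitor lowest and Tyr19Phe CDK9 highest. DKK1 fell by 0.35 with ALK inhibitor (SE 0.083, adjusted p = 0.0079), or 21.6%, and rose by 0.53 in Tyr19Phe CDK9 (SE 0.0796, adjusted p = 7.11e-06), or 44.3%. The difference between those groups was 0.88 (SE 0.0809, adjusted p = 5.99e-10). The ALK inhibitor call was lost without ALK inhibitor replicate 2, at -0.31 (adjusted p = 0.0608), and without both libraries that stand apart (adjusted p = 0.0593).

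DKK3, a divergent dickkopf that does not bind LRP co-receptors, was the most abundant member per kilobase, at 76.5 CPM per kilobase over the 9 libraries and 370 to 412 CPM. No call was made for it, with log2 fold changes of -0.03 (adjusted p = 0.848) and 0.05 (adjusted p = 0.42). In GENCODE its exons overlap USP47 on the opposite strand over 47.5% of their 11958 bases. By the deposited gene positions, no other listed gene overlaps DKK3, whose listed length is 5059 bases. The strand setting of the counting is not given, and whether reads of USP47 were counted for DKK3 was not tested. DKK1 took 19.3% ± 0.49 of secreted inhibitor RNA per kilobase in WT CDK9, 16.0% ± 0.728 with ALK inhibitor and 24.8% ± 0.53 in Tyr19Phe CDK9 (SD, n = 3), and DKK3 nearly all of the rest.

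SFRP1, which binds Wnt ligands outside the cell, was at 1.64, 1.11 and 3.42 CPM in WT CDK9, 1.80, 2.69 and 1.96 CPM with ALK inhibitor, and 3.79, 4.09 and 7.02 CPM in Tyr19Phe CDK9. Tyr19Phe CDK9 libraries were the highest 3, and WT CDK9 replicate 3 came close to them. The log2 fold change was 1.27 in Tyr19Phe CDK9 (SE 0.344, adjusted p = 0.00797) and 0.06 with ALK inhibitor (adjusted p = 0.969). It was lost without WT CDK9 replicate 1 (adjusted p = 0.0514), WT CDK9 replicate 2 (adjusted p = 0.0553), Tyr19Phe CDK9 replicate 3 (adjusted p = 0.102) or both libraries that stand apart (adjusted p = 0.0877). The difference of 1.21 from ALK inhibitor (adjusted p = 0.0104) was lost without ALK inhibitor replicate 1 (adjusted p = 0.0504), Tyr19Phe CDK9 replicate 3 (adjusted p = 0.124) or both libraries that stand apart (adjusted p = 0.0921). SFRP4 was at 0.142 to 1.56 CPM and was not called. DKK4 had 1 count in all, and DKK2 had 2 counts in ALK inhibitor replicate 1 and 1 in Tyr19Phe CDK9 replicate 1.

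In the destruction complex and beta-catenin group, 0 of 4 genes were called by edgeR or DESeq2 in each comparison. Over all tested genes the shares called were 4.55%, 18% and 20.7% in edgeR and 6.63%, 20.3% and 20.5% in DESeq2. At an unadjusted p under 0.05 there were 3, 1 and 1 of the 4, beside 2473, 4739 and 5145 of 16350 tested genes. CTNNB1, which encodes beta-catenin, was at 281, 278 and 271 CPM in WT CDK9, 253, 277 and 247 CPM with ALK inhibitor, and 266, 259 and 269 CPM in Tyr19Phe CDK9. The log2 fold changes were -0.10 (95% interval -0.19 to -0.01, adjusted p = 0.291) and -0.06 (95% interval -0.15 to 0.03, adjusted p = 0.381). AXIN1, the scaffold of the complex, was at 58.9 to 77.1 CPM, with its ALK inhibitor libraries below all WT CDK9 libraries and a log2 fold change of -0.20 (adjusted p = 0.122). APC, its tumour suppressor partner, was at 54.9 to 70.2 CPM, with ALK inhibitor libraries above all WT CDK9 libraries and a log2 fold change of 0.15 (adjusted p = 0.297). AXIN2, a feedback gene that beta-catenin activates in most tissues, was at 0.604 to 1.92 CPM. In Tyr19Phe CDK9 its 95% interval ran from -0.95 to 1.35, and it was called in no comparison. In GENCODE release 44 another gene on the same strand covers 25.3% of the exonic bases of AXIN2, and whether reads there went uncounted was not tested.

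TCF7 was the TCF or LEF gene called. It encodes TCF-1, best known from T cells and itself a target of the pathway, and was at 17.4, 16.2 and 15.2 CPM in WT CDK9, 21.6, 17.0 and 20.9 CPM with ALK inhibitor, and 11.3, 9.86 and 12.6 CPM in Tyr19Phe CDK9. Tyr19Phe CDK9 libraries were the lowest 3 of the 9, and ALK inhibitor overlapped WT CDK9. It fell by 0.53 in Tyr19Phe CDK9 (SE 0.135, adjusted p = 0.00443), was 0.29 with ALK inhibitor (adjusted p = 0.298), and differed by -0.82 between Tyr19Phe CDK9 and ALK inhibitor (adjusted p = 2.17e-05). TCF7 shares 2.08% of its exonic bases with SKP1 on the opposite strand, and SKP1 was at -0.14 in Tyr19Phe CDK9 (adjusted p = 0.0418).

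TCF7L1, often a repressor at Wnt targets, was the most abundant of the 4 genes at 7.38 CPM per kilobase over the 9 libraries. It was at 29.5, 31.0 and 31.3 CPM in WT CDK9, 31.9, 30.8 and 30.2 CPM with ALK inhibitor, and 34.4, 36.1 and 38.1 CPM in Tyr19Phe CDK9. The Tyr19Phe CDK9 libraries were the highest 3, with a log2 fold change of 0.24 that missed the threshold (adjusted p = 0.0551). It passed with upper-quartile scaling (adjusted p = 0.0346), with at least 10 counts required in every library (adjusted p = 0.0424) and in DESeq2 (adjusted p = 0.0449). TCF7L2 was at 22.5 to 29.6 CPM with overlapping groups, and LEF1 had 1 count in the 9 libraries together.

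The rest of the pathway was read through 5 lists with 131 genes, of which 106 were tested. Like the members, the lists were chosen with earlier results of these data known, so their shares called are descriptions. With ALK inhibitor 9 were called (8.49%, beside 4.55% of all tested genes), 3 higher and 6 lower. In Tyr19Phe CDK9 31 were called (29.2%, beside 18%), 15 higher and 16 lower, and between the groups 36 (34%, beside 20.7%), 18 higher and 18 lower. Median log2 fold changes were -0.01, 0.03 and -0.01. The ALK inhibitor count was 4 without both libraries that stand apart (3.16% of all tested genes). It was 5 without WT CDK9 replicate 2 (3.49%), 5 without ALK inhibitor replicate 2 (3.04%) and 4 without ALK inhibitor replicate 3 (3.09%). The count between the groups was 19 without both libraries that stand apart, where 13.5% of all tested genes were called.

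Secretion and extracellular modulators had 9 tested of 21 genes, with 3 called in Tyr19Phe CDK9, 1 higher and 2 lower (33.3%, beside 18% of all tested genes). WLS, the carrier that brings Wnt ligands to the surface, was at 1.64, 1.06 and 2.73 CPM in WT CDK9, 3.56, 4.45 and 2.48 CPM with ALK inhibitor, and 5.35, 3.81 and 4.04 CPM in Tyr19Phe CDK9. Tyr19Phe CDK9 libraries lay above all WT CDK9 libraries, and ALK inhibitor overlapped both groups. WLS rose by 1.28 in Tyr19Phe CDK9 (adjusted p = 0.0042). With ALK inhibitor it was 0.95 (adjusted p = 0.108), and 1.37 without WT CDK9 replicate 3 (adjusted p = 0.0217). NOTUM, which removes the lipid of Wnt ligands and is listed among the targets as well, fell by 1.83 in Tyr19Phe CDK9 (adjusted p = 0.0146). That call was lost without Tyr19Phe CDK9 replicate 2, at -1.43 (adjusted p = 0.0851). GPC6, a glypican, fell by 0.35 (adjusted p = 0.00117). With ALK inhibitor 1 gene was called (11.1%, beside 4.55% of all tested genes), SULF2, at -0.21 (adjusted p = 0.0273). It was lost without WT CDK9 replicate 2 (adjusted p = 0.131), WT CDK9 replicate 3 (adjusted p = 0.116), ALK inhibitor replicate 2 (adjusted p = 0.136), ALK inhibitor replicate 3 (adjusted p = 0.101) or both libraries that stand apart (adjusted p = 0.0889).

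Among 29 tested genes of the cytoplasmic relay, 8 were called in Tyr19Phe CDK9 (27.6%, beside 18% of all tested genes), 4 higher and 4 lower, and 1 with ALK inhibitor (3.45%, beside 4.55%). CAPRIN2, which binds LRP co-receptors, rose by 0.20 with ALK inhibitor (adjusted p = 0.0112) and by 0.32 in Tyr19Phe CDK9 (adjusted p = 8.66e-06). The former was lost without WT CDK9 replicate 2 (adjusted p = 0.0608) or ALK inhibitor replicate 3 (adjusted p = 0.0529). In Tyr19Phe CDK9, CXXC5, an inhibitor of dishevelled, fell by 0.42 (adjusted p = 4.45e-07), and USP34, an axin deubiquitinase, fell by 0.41 (adjusted p = 2.53e-07). The dishevelled partner DACT1 rose by 1.07 (adjusted p = 0.0171), a call lost without WT CDK9 replicate 2 (adjusted p = 0.105), WT CDK9 replicate 3 (adjusted p = 0.0509) or Tyr19Phe CDK9 replicate 1 (adjusted p = 0.0937). GSK3B, a kinase that marks beta-catenin, fell by 0.18 (adjusted p = 0.0201), lost without WT CDK9 replicate 2 (adjusted p = 0.207), Tyr19Phe CDK9 replicate 3 (adjusted p = 0.104) or both libraries that stand apart (adjusted p = 0.103). DIXDC1 was 0.23 higher (adjusted p = 0.0253), lost without WT CDK9 replicate 2 (adjusted p = 0.182), Tyr19Phe CDK9 replicate 1 (adjusted p = 0.0731) or Tyr19Phe CDK9 replicate 2 (adjusted p = 0.131). Its ALK inhibitor value was also 0.23 (adjusted p = 0.0631), called in 6 of 14 alternatives, and the direct difference was -0.01 (adjusted p = 0.962).

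All 19 nuclear partners were tested, and 8 were called in Tyr19Phe CDK9 (42.1%, beside 18% of all tested genes), 2 higher and 6 lower. With ALK inhibitor 2 were called (10.5%, beside 4.55%). HIPK2, a nuclear kinase, was at 259, 262 and 269 CPM in WT CDK9, 332, 333 and 327 CPM with ALK inhibitor, and 181, 185 and 181 CPM in Tyr19Phe CDK9. The groups did not overlap, and HIPK2 rose by 0.33 with ALK inhibitor (adjusted p = 9.28e-07) and fell by 0.53 in Tyr19Phe CDK9 (adjusted p = 1.97e-11). TLE2, a Groucho co-repressor, was at 24.2, 27.9 and 26.8 CPM in WT CDK9, 28.7, 25.4 and 25.4 CPM with ALK inhibitor, and 16.2, 13.4 and 15.9 CPM in Tyr19Phe CDK9. The Tyr19Phe CDK9 libraries of TLE2 were the lowest 3, at -0.79 (adjusted p = 2.63e-06). The co-repressor CTBP2 fell by 0.29 (adjusted p = 0.000532), while BCL9L, a co-activator, rose by 0.27 (adjusted p = 0.000141). SOX17 rose by 0.23 (adjusted p = 0.0061), lost without WT CDK9 replicate 3 (adjusted p = 0.06). TBL1X fell by 0.36 with ALK inhibitor (adjusted p = 0.00927), lost without ALK inhibitor replicate 1 (adjusted p = 0.109).

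Of 24 tested target genes, 7 were called in Tyr19Phe CDK9, 6 higher and 1 lower (29.2%, beside 18% of all tested genes, 7.61% higher and 10.4% lower). With ALK inhibitor 4 were called, 1 higher and 3 lower (16.7%, beside 4.55%, 1.82% higher and 2.73% lower). Targets named in the literature differ between tissues, and these genes answer to other pathways as well. CCND1, which encodes cyclin D1, was at 453, 457 and 453 CPM in WT CDK9, 433, 428 and 408 CPM with ALK inhibitor, and 555, 558 and 584 CPM in Tyr19Phe CDK9. Every Tyr19Phe CDK9 library was above the other 6. CCND1 rose by 0.32 (adjusted p = 1.32e-07), TCF4 by 0.89 (adjusted p = 4.14e-05) and TIAM1 by 0.67 (adjusted p = 0.000867). TCF4 here is the gene ENSG00000196628 and not the member TCF7L2, which was at 0.02 (adjusted p = 0.915). With ALK inhibitor, CCND1 was at -0.10 (adjusted p = 0.135, and 0.0448 in DESeq2).

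The target genes called with ALK inhibitor were BMP4, ENC1, JUN and MSX2. BMP4 fell by 1.05 (adjusted p = 0.0097), lost without ALK inhibitor replicate 2 (adjusted p = 0.0791) or both libraries that stand apart (adjusted p = 0.0803). ENC1 fell by 0.31 (adjusted p = 0.00498), lost without ALK inhibitor replicate 2 (adjusted p = 0.0575) or both libraries that stand apart (adjusted p = 0.0608). JUN fell by 0.16 (adjusted p = 0.0194), lost without WT CDK9 replicate 2 (adjusted p = 0.151), ALK inhibitor replicate 3 (adjusted p = 0.191) or both libraries that stand apart (adjusted p = 0.0567). MSX2 rose by 0.55 (adjusted p = 0.0346), and it kept the call without WT CDK9 replicate 2 and lost it without each of the other 5 libraries (adjusted p = 0.061 to 0.141), without both libraries that stand apart (adjusted p = 0.0512) and without the filter on low counts (adjusted p = 0.0634). In Tyr19Phe CDK9, MSX2 rose by 0.71 (adjusted p = 0.000913), called in all 14 alternatives.

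Of 27 tested genes of planar polarity and beta-catenin-independent signalling, 6 were called in Tyr19Phe CDK9 (22.2%, beside 18% of all tested genes), 2 higher and 4 lower, and 1 with ALK inhibitor (3.7%, beside 4.55%). CELSR2, a core polarity cadherin, was at 638, 628 and 642 CPM in WT CDK9, 587, 606 and 577 CPM with ALK inhibitor, and 463, 460 and 459 CPM in Tyr19Phe CDK9. The groups did not overlap, and CELSR2 fell by 0.46 in Tyr19Phe CDK9 (adjusted p = 1.25e-11). With ALK inhibitor it was at -0.11 (adjusted p = 0.0813, and 0.0077 in DESeq2). DAAM2, a formin that binds dishevelled, rose by 0.86 in Tyr19Phe CDK9 (adjusted p = 5.16e-05). Subunits of the calcium kinase CaMKII moved in different directions there, with CAMK2G at 0.26 (adjusted p = 0.00101), CAMK2D at -0.33 (adjusted p = 0.00166) and CAMK2B at -1.17 (adjusted p = 0.00257). CAMK2B was at -0.97 with ALK inhibitor (adjusted p = 0.041), lost without each of the 6 libraries compared (adjusted p = 0.0514 to 0.186), without both libraries that stand apart (adjusted p = 0.0748) and without the filter on low counts (adjusted p = 0.0771).

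Chromosomes differed in Tyr19Phe CDK9, which bears on where members lie. Chromosome 4 had a median log2 fold change of -0.22 over 608 tested genes, with 6 called higher and 209 lower. Chromosome 22 had 0.21 over 401 genes (111 higher, 6 lower) and chromosome 10 had 0.12 over 654 genes (110 higher, 32 lower). DKK1, FZD8, TCF7L2, SFRP5 and WNT8B lie on chromosome 10, WNT7B and ZNRF3 on chromosome 22, and LEF1, SFRP2 and DKK2 on chromosome 4. Within 5 Mb on either side of DKK1, 29 tested neighbours had a median of 0.22, with 5 called higher and 0 lower, beside 0.53 for DKK1. For FZD8 the median of 28 neighbours was 0.08, and for WNT7B that of 128 neighbours was 0.20, beside -0.13 for WNT7B itself. TCF7L2 was at 0.02 (neighbours -0.01) and ZNRF3 at 0.08 (neighbours 0.17), neither of them called. With ALK inhibitor the medians of chromosomes 4, 10 and 22 were 0.00, -0.01 and -0.02, and the same 29 neighbours of DKK1 had a median of -0.12, beside -0.35 for DKK1. DNA copy number of these cells was not measured here, and its part in these values was not tested.

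**Figure D5:**
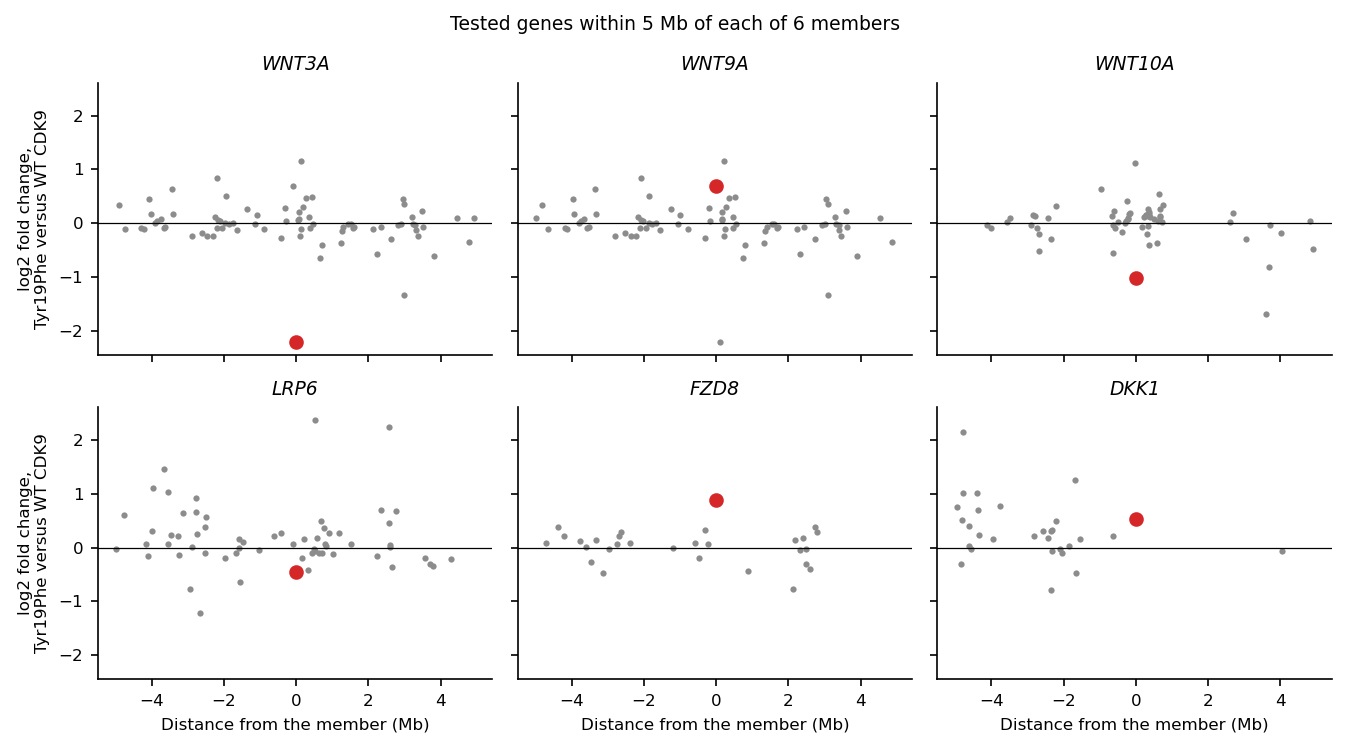
Log2 fold change in Tyr19Phe CDK9 (y axis) of the tested genes within 5 Mb of each of 6 members, against distance in megabases (Mb) from the member, which is drawn in red. The neighbours of WNT3A (median -0.02) and LRP6 (0.07) centre near 0, while those of DKK1 have a median of 0.22.

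Around the other called members the neighbours' medians in Tyr19Phe CDK9 were -0.08 for FZD6 (6 called lower and 1 higher of 37), -0.03 for TCF7, -0.02 for WNT3A, WNT9A and FZD3, 0.03 for SFRP1, 0.04 for WNT10A, 0.07 for LRP6 and LRP5, and 0.10 for LGR4. WNT10A has WNT6 as its neighbour, 6129 bases upstream on the same strand. WNT6 was at 2.25 CPM in ALK inhibitor replicate 2 and at 0 to 1.02 CPM in the other libraries. WNT3 and WNT9B lie 46 bases apart on opposite strands, and WNT9B had 0 counts beside 17.0 to 22.3 CPM for WNT3. In GENCODE, members other than DKK3 and TCF7 also share exonic bases with a gene on the opposite strand. The shares were 21.5% for WNT2B (ST7L), 18.9% for FZD4 (PRSS23) and 10.2% for DKK1 (PRKG1-AS1), and smaller for other members. PRSS23 was at -0.34 with ALK inhibitor (adjusted p = 1.55e-06), and FZD4 at 0.03 (adjusted p = 0.971).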

How the data were processed

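Deposited gene counts of 9 SKOV3 libraries (3 each of WT CDK9, WT CDK9 with ALK inhibitor and Tyr19Phe CDK9) were used. In the deposited table the values are raw counts, made by the authors with CASAVA, HISAT2 2.0.5 and featureCounts 1.5.0-p3 on GRCh38 (hg38), per the labels. A gene length column, in bases (its unit is other than counts), is also deposited by the authors. Neither annotation release nor strand setting is given.

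Genes were filtered with filterByExpr (minimum count 10, minimum total 15), scaled by TMM and tested with the quasi-likelihood test of edgeR 4.0.16 (limma 3.58.1, R 4.3.3), with all 9 libraries in 1 fit (6 residual degrees of freedom) and Benjamini-Hochberg adjustment over 16350 genes. The tests are two-sided. The SE is the log2 fold change over the root of the F statistic, and intervals are at 95%. Levels between genes used CPM per kilobase of listed length. Alternatives were DESeq2 1.42.0, other scalings and filters, pairwise fits, a replicate block and leaving out libraries. Procedures were tested on simulated data. Principal components used log2 CPM with a prior count of 2.

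Members and lists were chosen with earlier results of these data known. Text names every called member, the 3 most abundant members per role, and per list, for each comparison with WT CDK9, the called genes of lowest adjusted p (up to 3 each way). Other members are given by range. Gene positions are from the deposited table. Exon overlaps came from GENCODE release 44, in which all 52 members were found, and promoters from RefSeq. Tables and figures used Python 3.11.15, pandas 2.3.3, numpy 2.4.6 and matplotlib 3.10.9.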

Additional observations from a re-analysis of the deposited data

Results flagged for a closer look

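Tested pathway genes that were called in opposite directions in the comparisons with WT CDK9 were picked out. They also had to be called between Tyr19Phe CDK9 and ALK inhibitor. That choice fixes the direction and the call of their difference between those groups in the same libraries. The difference is therefore given here as a description, with no test. DKK1 was lower with ALK inhibitor and higher in Tyr19Phe CDK9, and the log2 difference between those groups was 0.88. ENC1 was at 75.4, 68.8 and 76.7 CPM in WT CDK9, 60.7, 55.0 and 62.6 CPM with ALK inhibitor, and 81.2, 85.2 and 86.3 CPM in Tyr19Phe CDK9. The groups did not overlap, and the difference of Tyr19Phe CDK9 from ALK inhibitor was 0.50. The ENC1 value of 0.19 against WT CDK9 (adjusted p = 0.0421) was lost without WT CDK9 replicate 1 (adjusted p = 0.071), WT CDK9 replicate 2 (adjusted p = 0.186), Tyr19Phe CDK9 replicate 2 (adjusted p = 0.103), Tyr19Phe CDK9 replicate 3 (adjusted p = 0.115) or both libraries that stand apart (adjusted p = 0.0886). HIPK2 was higher with ALK inhibitor and lower in Tyr19Phe CDK9, with a difference of -0.86. The cause of these differences was not tested.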

How the results depend on the processing

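Over all single-gene results and alternatives run, 2095 values kept their side of the threshold, 95 lost the call and 27 gained it, and 0 called values reversed. In Tyr19Phe CDK9 against WT CDK9, WNT3A, WNT10A, WNT9A, FZD8, FZD3, FZD6, LRP6, TCF7 and DKK1 were called in all 14 alternatives. With each library left out in turn, 0 to 2 members and 4 to 8 genes of the wider lists were called with ALK inhibitor. Calls over all tested genes fell as well, from 4.55% to between 2.89% and 3.57%. An alternative added after seeing the data left out both libraries that stand apart, ALK inhibitor replicate 2 and Tyr19Phe CDK9 replicate 3. It gave 0 members and 4 list genes with ALK inhibitor, beside 3.16% of all tested genes, and 19 list genes between the groups, beside 13.5% (20.7% with all libraries). Fewer libraries were used there, and no other cause was tested.

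Counts in Tyr19Phe CDK9 with each library left out were 9 to 12 members and 22 to 28 list genes (12.8% to 15.4% of all tested genes), and between the groups 9 to 11 and 26 to 32 (15.4% to 17.5%). With replicate number as a block the members called were 2, 11 and 11 and the list genes 11, 34 and 36. The shares of all tested genes called in that fit were 5%, 18.8% and 21.2%. Libraries of the same replicate number shared little of their deviation from group means, with correlations of -0.0116 to 0.026. The labels do not say whether replicate numbers pair libraries. DESeq2 called 2, 12 and 11 members, beside 6.63%, 20.3% and 20.5% of all genes it tested. For the 15 untested members, depth limits what can be said to the floors given.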

Other observations

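WIF1, a secreted inhibitor that binds Wnt ligands, fell below the filter and belongs to no comparison. It was picked after its values were seen. It had 0, 0 and 0 counts in WT CDK9, 3, 2 and 2 with ALK inhibitor, and 7, 16 and 13 in Tyr19Phe CDK9. The mean of 0.432 CPM in Tyr19Phe CDK9 is at least 2.74-fold higher than the mean WT CDK9 floor of 0.158 CPM (3 counts per library). The endothelial cadherin CDH5, below the filter as well and also picked after its values were seen, had 0 counts in WT CDK9, 0, 1 and 0 with ALK inhibitor, and 14, 35 and 17 in Tyr19Phe CDK9. PECAM1, another endothelial marker, stayed at 0 to 3 counts in the 9 libraries.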
